A study of Caenorhabditis elegans with 4 samples.

Results

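The 202 sites described here are the ZIP-2 binding sites that lay on the arms of chromosomes II, III, IV and V of Caenorhabditis elegans. They were taken from a combined list of 755 sites mapped by chromatin immunoprecipitation with sequencing (ChIP-seq). A site counted as an arm site when its midpoint lay in the outer 25% at either end of the chromosome's span. The span was the highest peak end on that chromosome in any of the 3 peak lists, and it was a lower bound of the chromosome's length. Members were therefore chosen by position alone. The same chromosomes carried 291 sites in their central 50%, chromosome X carried 177 and chromosome I carried 85.

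All samples came from hermaphrodite worms of strain OP432 at the fourth larval stage (L4), grown at 20 °C on E. coli HB101. The strain carries the mutation unc-119(ed3) on chromosome III. It also carries the transgene wgIs432, which holds zip-2 with the tag TY1-GFP-3xFLA (as spelled in the labels) and a rescuing copy, unc-119(+). The transgene was introduced by bombardment, and the labels give neither its insertion site nor a mutation of the native zip-2 gene. The series held 2 ChIP samples made with antibodies to GFP and 2 input samples, and no peaks of an input sample were analysed. Replicate 1 had 315 peaks and replicate 2 had 192. Whether the replicates were separate cultures is not stated, so their spread may be technical. Each peak has a position in the WormBase WS180 genome and a q-value given by the authors, written here as −log10 q, so that a larger value is a stronger peak. The lists hold no read counts, depth is unknown, and sites are named by position because no gene annotation of that build was used.

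ZIP-2 is a basic leucine zipper (bZIP) transcription factor, a protein that binds DNA as a dimer. It is known to switch on defence genes when worms meet Pseudomonas aeruginosa or when translation is blocked. The chromosomes of C. elegans have no single centromere. Their arms are known for frequent meiotic recombination, more repeats, and more of the rapidly evolving gene families, while the centres hold most of the conserved, highly expressed genes. The 25% limits used here are not the measured limits of those recombination domains.

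The arms carried fewer sites than the centres in the same length of chromosome. Each set spanned 33.5 Mb, with 202 arm sites (6.04 per Mb, exact 95% Poisson interval 5.23 to 6.93) and 291 centre sites (8.69 per Mb, 7.72 to 9.75). Arm sites made up 41.0% of the 493 sites on the 4 chromosomes (exact 95% binomial interval 36.6 to 45.5%). The arm share was 45.5% on II, 36.0% on III, 43.1% on IV and 38.7% on V, below 50% on each, and on II and IV the interval reached above 50%. These intervals, and all others given here, cover the counting of sites only, and peaks of 1 list are not independent replicates. No test was applied to any of these counts.

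Arms and centres held nearly the same number of sites found in both replicate lists, and the lower density of the arms lay in sites with less support. Of the 202 arm sites, 48 (23.8%, exact 95% binomial interval 18.1 to 30.2%) overlapped peaks of both replicate lists by at least 1 bp, against 47 of 291 centre sites (16.2%, 12.1 to 20.9%). Over all 755 combined sites the share was 20.3%, which lies inside the interval of the arm sites. It was higher than on the arms on chromosome X (52 of 177, 29.4%) and lower on chromosome I (6 of 85, 7.06%). A further 38 arm sites had support from replicate 1 alone and 9 from replicate 2 alone, and 107 (53.0%) had no support in either list. At least 1 list was overlapped by 95 arm sites (47.0%, 40.0 to 54.2%), against 42.9% of all combined sites, again inside the interval. Per Mb, sites in both lists were about as frequent on arms (1.43, 1.06 to 1.90) as in centres (1.40, 1.03 to 1.87). Sites in neither list had a density of 3.20 per Mb on arms (2.62 to 3.86) and 5.17 per Mb in centres (4.43 to 5.999). Both kinds of list come from the same ChIP samples, so this support is no independent repeat.

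The share of sites in both lists was higher on arms than in centres on each of the 4 chromosomes, with intervals that overlapped each time. On chromosome II it was 15 of 55 arm sites (27.3%) and 15 of 66 centre sites (22.7%). On chromosome III it was 7 of 31 arm sites (22.6%) and 3 of 55 centre sites (5.45%). On chromosome IV it was 9 of 53 arm sites (17.0%) and 8 of 70 centre sites (11.4%), and on chromosome V 17 of 63 (27.0%) and 21 of 100 (21.0%). Leaving out 1 chromosome at a time gave arm shares between 22.3% and 26.2%.

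The replicate lists themselves were sorted by the same position rule. Replicate 1 had 89 of its 208 peaks on II to V on the arms (42.8%, 36.0 to 49.8%), and replicate 2 had 60 of 124 (48.4%, 39.3 to 57.5%). The share of replicate 1 lay inside the interval of the combined list (36.6 to 45.5%). That of replicate 2 lay above it, and its own interval reached above 50%. Of the replicate 1 arm peaks, 48 (53.9%) overlapped a replicate 2 peak, and of the replicate 2 arm peaks, 49 (81.7%) overlapped a replicate 1 peak. All but 3 arm peaks of the replicate lists overlapped the combined list. The 3 were weak, at −log10 q of 4.39 (chromosome V 729290 to 729897, replicate 1), 4.28 (chromosome IV 17259972 to 17260206, replicate 1) and 4.42 (chromosome II 12518892 to 12519576, replicate 2).

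**Figure D1:**
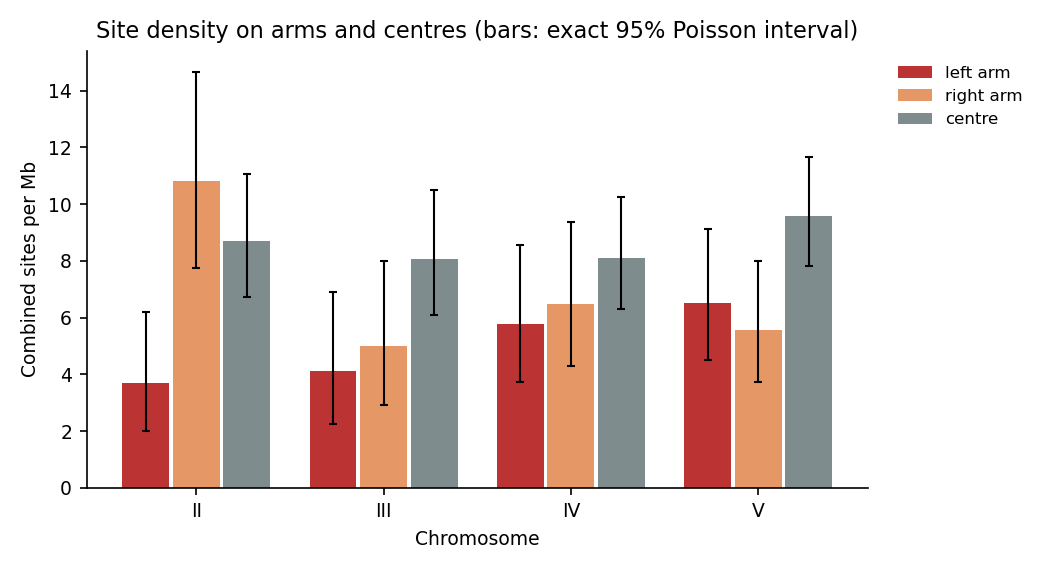
Combined sites per Mb (y axis) on the left arm, right arm and centre of chromosomes II to V (x axis), with exact 95% Poisson intervals for counting error. The right arm of II, at 10.8 sites per Mb, was the only arm above the centre of its chromosome.

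The 8 arms differed in how many sites they held. The right arm of II stood highest, with 41 sites in 3.79 Mb (10.8 per Mb, 7.76 to 14.7), and the left arm of II lowest, with 14 sites in the same length (3.69 per Mb, 2.02 to 6.19). Their intervals do not overlap. On the other 3 chromosomes left and right arms were closer, with overlapping intervals: 14 and 17 sites on III, 25 and 28 on IV, and 34 and 29 on V. The imbalance on II was also seen in each replicate list, with 6 left and 23 right peaks in replicate 1, and 2 left and 16 right peaks in replicate 2. Over all 4 chromosomes 87 sites were on left arms (43.1%, 36.1 to 50.2%) and 115 on right arms. Without chromosome II the counts were 73 and 74.

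Within the arms, sites were least frequent between 10% and 15% of the span from the end. The outermost 5% held 43 sites (6.42 per Mb, 4.65 to 8.65), the next 5% also 43, the third 26 (3.88 per Mb, 2.54 to 5.69), the fourth 36 and the innermost 54 (8.07 per Mb, 6.06 to 10.5). Chromosome V gave 2 of the 26 sites in the third step. On the right arm of II, the innermost step held 13 of the 41 sites and the outermost 10. Sites in both lists made up 14 of the 43 outermost sites (32.6%, 19.1 to 48.5%) and between 19.2% and 22.2% of the other 4 steps. The share of all 755 combined sites, 20.3%, lies inside the interval of the outermost step. On the left arms, the site nearest the end lay 24.2 kb from it on II, 355 kb on III, 192 kb on IV and 103.9 kb on V. On each of the 4 right arms the nearest site set the end of the span itself, so its distance from that end is fixed by the rule. On II and IV the overlapping replicate 2 peak set it and the site was in both lists, and on III and V the combined site set it and was in neither replicate list.

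**Figure D2:**
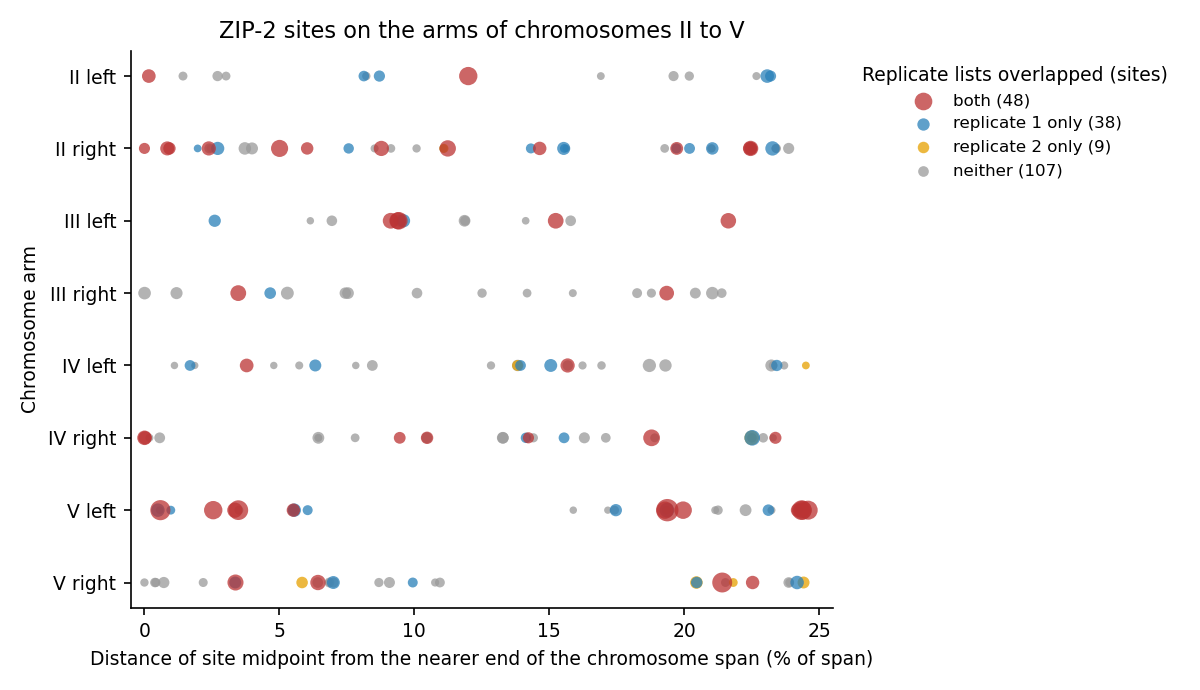
Each point is 1 of the 202 arm sites, placed by its distance from the nearer end of the span (x axis, % of span) on its arm (y axis); colour gives the replicate lists overlapped and larger points have a larger −log10 q. Both arms of V have a long stretch without sites, and the largest points lie on the left arm of V.

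The strongest arm sites were concentrated on chromosome V. The median −log10 q was 7.11 on arms, 6.29 in centres and 6.52 over all combined sites. Of the 10 strongest combined sites, 5 were arm sites, all 5 of them on V, and the other 5 were on X. Farther down the ranking the arms held 5 of the top 20 sites, 14 of the top 50 and 29 of the top 100, against 202 of all 755 sites. Of the 20 strongest arm sites, 9 were on the left arm of V, 4 on the left arm of III, 2 each on the right arms of II and V, 1 each on II left, III right and IV right, and none on IV left. A −log10 q above 50 was reached by 6 sites of V left and 1 of V right, and by no site on the other 6 arms. V left also had the highest share of sites in both lists, 13 of 34 (38.2%, 22.2 to 56.4%), and IV left the lowest, 2 of 25 (8.00%, 0.984 to 26.03%). III left was close to V left, at 5 of 14 (35.7%). The share of all 755 combined sites, 20.3%, lies inside the interval of IV left and below that of V left.

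On the left arm of V, the strongest site of the whole combined list lay at chromosome V 4041037 to 4043607, with −log10 q of 137 in replicate 1, 113 in replicate 2 and 211 combined. It ranked 1 in replicate 2 as well, and 2 in replicate 1. A pair of weaker combined sites lay immediately to its left, at 4038528 to 4040022 (−log10 q 17.3, replicate 1 only) and 4040245 to 4040594 (4.10, replicate 2 only), so that 3 sites followed each other within 5080 bp. Towards the chromosome end, the site at 122720 to 124315 had 61.6 in replicate 1, 39.0 in replicate 2 and 90.8 combined. The broad site at 723599 to 728647 had 35.1, 26.7 and 77.7 in the same order.

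Close to the inner limit of V left, 6 sites fell between 5049357 and 5132098, and 5 of them were in both lists. Among these, the site at 5080648 to 5081544 had −log10 q of 58.5 in replicate 1, 36.0 in replicate 2 and 77.5 combined. Its neighbour at 5086882 to 5087567 had 40.5, 23.7 and 56.6, and the site at 5131133 to 5132098 had 35.5, 32.4 and 60.8. The group held the most sites found within 100 kb on any arm.

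The right arm of V had 1 site of comparable strength, at chromosome V 16394930 to 16395550, with 48.1 in replicate 1, 44.0 in replicate 2 and 84.2 combined. It was 621 bp wide, against a median of 536 bp on that arm. The next on that arm, at 20157408 to 20158795, reached 13.3, 12.5 and 24.6. V right carried 4 of the 9 arm sites seen in replicate 2 only.

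On the left arm of III, 5 of 14 sites were in both lists, and 3 of these were near neighbours. The site at chromosome III 1284091 to 1285081 had −log10 q of 24.1 in replicate 1, 12.9 in replicate 2 and 38.8 combined. The site at 1278994 to 1279691 had 13.7, 7.03 and 31.0, and the site at 1243203 to 1243754 had 10.4, 6.43 and 22.6. On the right arm of III, 14 of 17 sites were in neither list (82.4%, 56.6 to 96.2%). This share was 76.4% in the centre of III and 78.8% on chromosome I. Over all combined sites it was 57.1%, inside the interval of III right. The strongest site of III right, at 13152763 to 13153283, had 13.5, 8.14 and 22.8.

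On chromosome II, the strongest arm site was isolated on the left arm at 1819829 to 1820375, with 36.3 in replicate 1, 23.2 in replicate 2 and 48.8 combined. The gap to the next site on its right was 745 kb. The many sites of the right arm were weaker: the strongest, at 14404896 to 14408310, had 9.69, 10.4 and 33.5, and the next, at 13460502 to 13462616, had 18.0, 6.14 and 26.9. Of the 41 sites on II right, 13 were in both lists and 17 in neither.

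The left arm of IV had the weakest leading site of the 8 arms. This site, at 2709511 to 2710862, had −log10 q of 10.6 in replicate 1, 9.57 in replicate 2 and 15.04 combined, and 16 of the 25 sites on IV left were in neither list. On the right arm of IV the strongest, at 14032740 to 14034654, had 11.9 in replicate 1, 18.0 in replicate 2 and 29.9 combined. The second, at 13388614 to 13390147 (combined 21.7), overlapped 2 peaks of replicate 1 and none of replicate 2. It opened the run with the most closely spaced sites on any arm, 4 sites in 5228 bp.

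At the 48 arm sites in both lists, the replicates placed their peaks close together. The midpoints of the strongest overlapping peak of each replicate differed by a median of 46.25 bp (interquartile range 23.6 to 129 bp), and 45 of 48 pairs lay within 250 bp. Their median −log10 q was 10.2 in replicate 1, 7.04 in replicate 2 and 20.0 combined. Replicate 1 was the stronger at 39 of 48 sites, and the combined value exceeded both at all 48. Across these sites the replicates' values were related (Pearson's r 0.89 on log10-transformed −log10 q, Spearman's rho 0.70). Sites are not replicates, and those below the limit of either list are absent from the relation.

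Replicate support followed strength on the arms as in the centres. Combined and replicate lists come from the same ChIP samples, so this relation is partly built in. When the 755 combined sites were ranked into 5 strength groups of 151, the arms held 47, 47, 34, 36 and 38 sites from strongest to weakest, and the centres 52, 61, 53, 61 and 64. In the strongest group, 38 of 47 arm sites were in both lists (80.9%, 66.7 to 90.8%), against 36 of 52 centre sites (69.2%, 54.9 to 81.3%), and no arm site was in neither (0 of 47, upper bound 7.55%). Of all 151 combined sites in that group, 118 were in both lists (78.1%) and 4 in neither (2.65%), inside the intervals of the arms. Chromosome X had 38 of 39 in both lists there (97.4%), above the arms. In the second group 9 arm sites were in both lists (19.1%) and 20 in neither (42.6%). All combined sites of the second group had 19.9% in both lists and 31.8% in neither. In the third group 1 of 34 was in both lists, and in the 2 weakest groups 0 of 36 and 0 of 38 were. The strongest arm site in neither list lay at chromosome IV 3232734 to 3234761 (−log10 q 11.9), and the weakest in both lists at chromosome II 15165792 to 15166231, with 4.39 in replicate 1, 4.79 in replicate 2 and 7.46 combined.

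**Figure D3:**
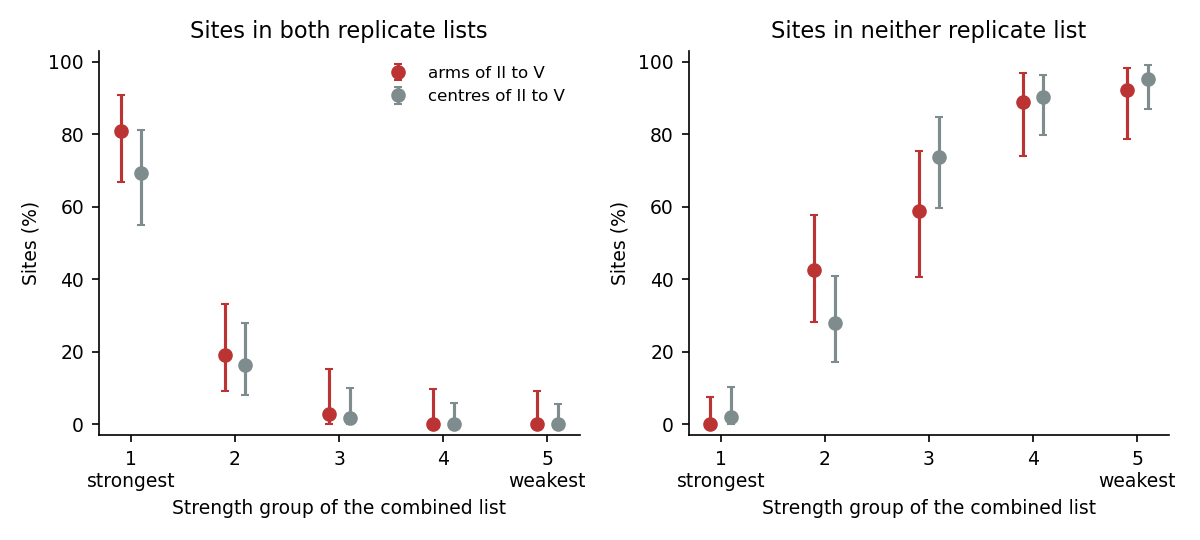
Share of sites (y axis, %) in both replicate lists (left panel) and in neither (right panel), by strength group of the combined list (x axis), for the arms and the centres of II to V with exact 95% binomial intervals. Of the arm sites, 80.9% of the strongest group and 0 of the weakest were in both lists, and the intervals of arms and centres overlap in every group.

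Arm sites were short. The median width was 553 bp on arms (interquartile range 392 to 857 bp), 603 bp in centres (423 to 973 bp) and 596 bp over all combined sites. The order of arms and centres was not the same on each chromosome: the arm median was the larger on II (605 and 571 bp) and V (599 and 560 bp) and the smaller on III (601 and 722 bp) and IV (494 and 579.5 bp). By arm, the median ran between 472 bp on IV left and 700 bp on V left. Arm sites in both lists had a median width of 712 bp, and those in neither of 494 bp. In the strongest group the median was 816 bp on arms and 1204 bp in centres, and in the weakest 423.5 and 469 bp.

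Wider arm sites were on the whole stronger (Spearman's rho 0.44 across 202 sites, a description with no test). Of the 84 arm sites of at most 500 bp, 8 were in both lists (9.52%), against 28 of 82 between 500 and 1000 bp (34.1%), 8 of 29 between 1000 and 2000 bp (27.6%) and 4 of 7 above 2000 bp. In the centres the shares of the same classes were 13.5%, 10.4%, 26.8% and 55.6%. The rise from the first to the second class was thus not seen there. The 7 arm sites above 2000 bp were 3 on II right, 2 on V left and 1 each on III left and IV left. The widest, 12760 bp at chromosome III 831505 to 844264, was weak (−log10 q 4.11) and in neither list, while the second, 5049 bp at chromosome V 723599 to 728647, overlapped 1 peak of replicate 1 and 2 of replicate 2. The third was the 3415 bp site that led the right arm of II, again with 1 and 2 overlapping peaks. The narrowest arm site, of 64 bp at chromosome III 946521 to 946584, lay 102 kb from the widest and was also in neither list.

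**Figure D4:**
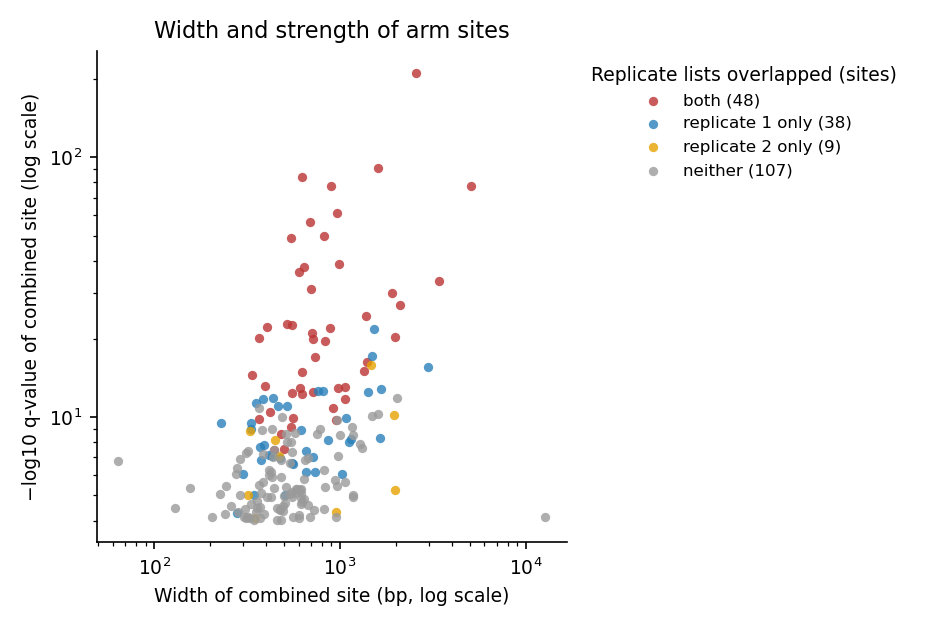
Width of each arm site in bp (x axis, log scale) against its −log10 q in the combined list (y axis, log scale), coloured by the replicate lists overlapped. Sites in both lists fill the upper part, from 7.46 up, and the widest site, at 12760 bp, lies near the lower edge.

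Gaps between neighbouring sites on the arms ran from 221 bp to 2053 kb. The 194 gaps between neighbouring sites of the same arm had a median of 78.0 kb (interquartile range 13.1 to 194 kb), against 65.5 kb in the 287 gaps of the centres. At most 2000 bp separated the sites in 26 arm gaps (13.4%, 8.95 to 19.0%) and 30 centre gaps (10.5%, 7.16 to 14.6%). Over all combined sites this share was 10.9% (81 of 741 gaps), inside the interval of the arms. Between 2 and 10 kb the order was reversed, with 9.28% of arm gaps and 13.9% of centre gaps. Gaps above 500 kb numbered 11 on the arms (5.67%, 2.86 to 9.92%) and 4 in the centres (1.39%, 0.381 to 3.53%), with overlapping intervals. Over all combined sites there were 24 among 741 gaps, and on chromosome I 8 among 84. By arm, the median gap was shortest on V left (23.0 kb) and longest on II left (191 kb).

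The longest gaps were on chromosome V. On its left arm no site lay in the 2.05 Mb between 1262608 and 3315320, or 39.4% of the arm. On its right arm none lay in the 1.98 Mb between 16595705 and 18577313, or 38.0% of that arm. The next was 1.01 Mb on IV right, between 16168649 and 17183283. In the centres the longest gap was 917 kb, on X 841 kb, and on chromosome I 1364 kb. Chromosome I had 8 gaps above 500 kb among 84. Neither replicate list had a peak inside any of these 3 arm gaps. This was nearly fixed in advance, because all but 3 arm peaks of the replicate lists overlapped a combined site. Of the 11 arm gaps above 500 kb, 1 held a peak of a replicate list, the replicate 2 peak on II right that the combined list left out. Repeats to which reads cannot be assigned, and the depth in these stretches, were not measured here.

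At the short end, 47 of the 202 arm sites stood in 21 runs with gaps of at most 2000 bp, made up of 17 pairs, 3 groups of 3 and 1 of 4. Support was alike inside and outside the runs: 11 of 47 sites in runs (23.4%) and 37 of 155 single sites (23.9%) were in both lists. IV right had 8 such gaps among 27 (29.6%, 13.8 to 50.2%), and II left and III right had 0 among 13 and 16. The run of 4 on IV right, between 13388614 and 13393841, had gaps of 221 to 550 bp, and 2 replicate 1 peaks and 1 replicate 2 peak overlapped it. The run of 3 on V left between 1153962 and 1159000 overlapped 2 replicate 1 peaks and no replicate 2 peak. Sites so close may be separate or parts of 1 enriched stretch, and the lists do not tell these apart.

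**Figure D5:**
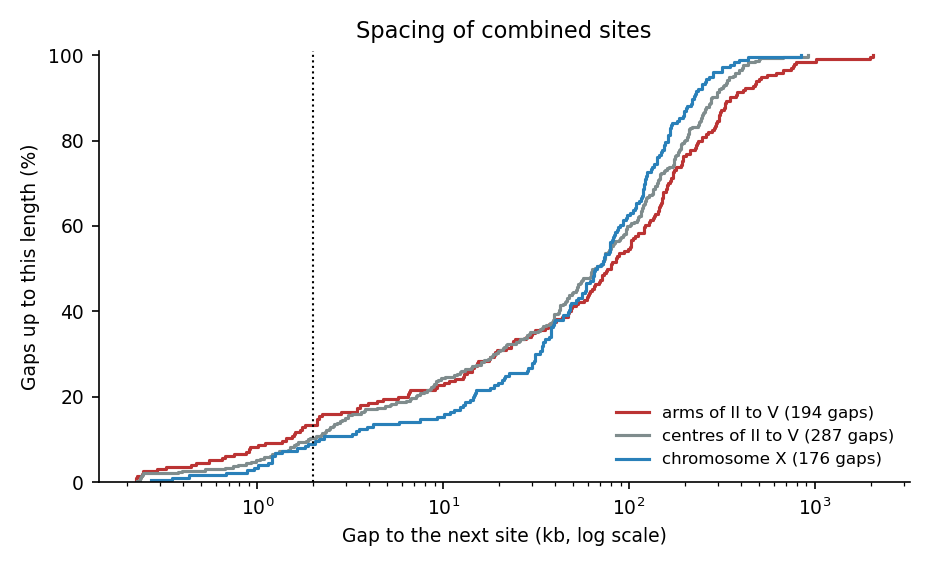
Cumulative share of gaps (y axis, %) up to a given length (x axis, kb, log scale) for neighbouring sites on the arms and in the centres of II to V and along X; the dotted line marks 2 kb. The arm curve lies highest at the dotted line, where it has reached 13.4%, and reaches farthest to the right, to 2053 kb.

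The sites nearest the arm limits show how firmly the rule places members. The closest just outside lay 3.34 kb from the right limit of III, at chromosome III 10216515 to 10217194 (−log10 q 4.47, in neither list), and the closest inside lay 83.9 kb from the left limit of V, at 5131133 to 5132098 (60.8, in both lists). On II the first sites inside were 272 and 171 kb from the left and right limits, and the first outside 256 and 29.0 kb. On III the sites inside were at 458 and 491 kb and the other one outside at 49.7 kb. On IV the sites inside were at 84.4 and 279 kb and those outside at 70.3 and 570 kb, and on V the other one inside was at 120 kb and those outside at 208 and 135 kb. Of the 8 sites just inside a limit, 3 were in both lists, 1 in replicate 1 only, 2 in replicate 2 only and 2 in neither, and of the 8 just outside, 1 was in replicate 1 only and 7 were in neither.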

How the data were processed

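Peaks were called with PeakSeq on WormBase WS180, per the file headers and columns. Each peak's q-value is the authors' own and was deposited with its position. The PeakSeq version, the aligner, the control, the q-value limit and the making of the combined list are each not given in the sources used here. Samples were grouped by their titles. Depth is unknown.

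From these lists, positions, widths, overlaps of at least 1 bp and gaps within an arm were computed with Python 3.11.15, NumPy 2.4.6, SciPy 1.17.1 and pandas 2.3.3, and drawn with matplotlib 3.10.9. Shares have Clopper-Pearson intervals and densities exact Poisson intervals, both at 95%. No tests were run, because peaks of 1 list are not replicates. Placement, overlap and gap counting were checked on simulated peaks. Named sites were the 2 strongest per arm, the 3 widest, the 3 largest runs and those at ends and limits. Other named sites were chosen after their values were seen. Members and lists were chosen with earlier results of these data known. Alternatives were other arm limits, spans, overlap rules, gap limits, stronger sites, merged sites and 1 replicate alone.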

Additional observations from a re-analysis of the deposited data

How the results depend on the processing

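Of 37 alternatives over 7 quantities, 28 stayed within the counting interval, the interquartile range or 1.5 times the main value. The number of arm sites was 116 in the stronger 50% of the combined list. The arm share moved by construction with the limits, to 30.02% with the outer 20% at each end and 51.5% with the outer 30%, and it was 45.8% among the stronger 50%. Among the stronger 50%, the share of arm sites in both replicate lists was 41.4% and that in at least 1 list 72.4%. All 48 arm sites in both lists were kept by this cut, so their share rose through the smaller total of 116. The same shares over all combined sites of the stronger 50% were not computed. Support from 1 replicate alone ranged from 28.2% without replicate 1 to 42.6% without replicate 2. The share of short gaps was 8.25% with a limit of 1000 bp and 19.6% with 5000 bp, again by construction. No paired analysis was possible because the input samples gave no peaks to set beside the ChIP peaks of the same number. With depth unknown, a site without a replicate peak fell short of that list's limit, which does not show an absence of binding.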

Other observations

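The arm sites nearest the ends of the spans showed an order of the replicates that was noticed after their values were seen. Of the 48 arm sites in both replicate lists, 4 lay within 25 kb of an end, and replicate 2 had the larger −log10 q at all 4, against 5 of the other 44. By arm, replicate 2 was the stronger at 4 of 7 such sites on IV right and 3 of 13 on II right. It was so at 1 of 2 on II left, 1 of 13 on V left and none on the other arms. All 4 end sites lay on II and IV, so nearness to an end cannot be told apart from the chromosome. The 2 on IV lay 1425 bp apart and may be parts of 1 enriched stretch. At chromosome IV 17280271 to 17281673 the values were 6.93 in replicate 1 and 10.1 in replicate 2, and at 17277786 to 17278845 they were 6.19 and 7.37. At chromosome II 24246 to 25314 they were 5.63 and 10.3, and at 15165792 to 15166231 they were 4.39 and 4.79. Over all 48 sites the ratio of replicate 1 to replicate 2 had a median of 1.42. The replicate 2 peaks at 17280271 to 17281673 on IV and 15165792 to 15166231 on II themselves set the ends of those spans, so the nearness of these 2 sites to an end is fixed by the rule through replicate 2. The other 2 arm sites within 25 kb of an end, on III right and V right, were in neither list, and their own ends set the spans. On chromosomes I and X, 4 further sites lay within 25 kb of an end. Of these, 3 were in neither list, and 1, at chromosome X 17544238 to 17544800, was in replicate 1 only (−log10 q 5.15), which goes against the order seen on the arms. The cause was not tested, and 4 sites are few.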
